A study of Homo sapiens with 2 samples.

Results

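The keratins described here are a list of 10 from the suprabasal layers of stratified epithelium, which need not be complete. Listed were KRT1, KRT2 and KRT10 of epidermis, KRT4, KRT13, KRT76, KRT78 and KRT3 of mucosal and corneal surfaces, and KRT23 and KRT80. They were taken as all non-control array probes whose gene name in the deposited files equals one of these symbols. This gave 10 genes on 11 probes, of 43317 gene names on 58201 probes. RNA came from Ca9-22, an established cell line of oral squamous cell carcinoma (OSCC), in 2 groups of 1 array each. The first group was infected with an empty lentiviral vector (control cells), and the other with the same vector carrying the full-length cDNA of the long noncoding RNA DLEU1 (DLEU1 cells), which had been amplified from another OSCC line. Both groups underwent blasticidin selection for 2 weeks. Each group was thus 1 infected and selected culture of 1 line, so that a difference between the vectors and a difference between the cultures cannot be told apart. With 1 array a group there was no replicate check and no test. Every error of a signal given below is the scanner software's own for a spot. The software error of a difference was calculated from those of both spots.

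Keratins are the intermediate filament proteins of epithelial cells, and each filament is built from heterodimers of a type I and a type II keratin. The type II genes lie together on chromosome 12 and the type I genes, apart from KRT18, on chromosome 17. Basal cells of stratified epithelium make KRT5 and KRT14, and cells that leave the basal layer switch to other pairs. In epidermis this is KRT1 with KRT10, joined by KRT2 in the upper layers. In the lining mucosa of mouth and oesophagus it is KRT4 with KRT13, whereas KRT76 belongs to the masticatory mucosa of gingiva and palate. Suprabasal keratins are therefore used as markers of how far, and along which route, a squamous cell has differentiated.

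The sequences just upstream of the genes are shown first, because 3 of them, KRT76, KRT3 and KRT4, are direct neighbours whose differences are set side by side below. RefSeq promoters (GRCh38.p14) matched 5 of the 10 genes, KRT76, KRT3, KRT4, KRT2 and KRT10. The 250 bases before each start, all on the minus strand, were chr12:52777346-52777595 for KRT76, chr12:52796118-52796367 for KRT3, chr12:52814117-52814366 for KRT4, chr12:52652212-52652461 for KRT2 and chr17:40822615-40822864 for KRT10. Capitals mark TATAA, the core of a TATA box, and the word GGTGTGTT.
KRT76: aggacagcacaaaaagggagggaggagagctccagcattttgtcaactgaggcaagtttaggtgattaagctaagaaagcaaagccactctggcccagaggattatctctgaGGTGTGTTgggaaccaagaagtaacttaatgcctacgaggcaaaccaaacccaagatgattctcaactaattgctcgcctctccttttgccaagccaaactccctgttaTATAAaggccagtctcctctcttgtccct
KRT3: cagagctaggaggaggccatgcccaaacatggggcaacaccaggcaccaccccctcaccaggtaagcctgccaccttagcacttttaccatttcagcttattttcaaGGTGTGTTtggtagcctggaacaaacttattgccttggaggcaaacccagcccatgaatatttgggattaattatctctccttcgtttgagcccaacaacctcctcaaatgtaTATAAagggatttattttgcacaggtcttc
KRT4: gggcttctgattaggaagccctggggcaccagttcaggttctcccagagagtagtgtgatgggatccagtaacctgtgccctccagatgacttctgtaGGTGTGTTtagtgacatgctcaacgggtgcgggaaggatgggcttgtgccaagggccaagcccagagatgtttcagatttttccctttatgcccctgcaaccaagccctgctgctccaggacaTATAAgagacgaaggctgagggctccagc
KRT2: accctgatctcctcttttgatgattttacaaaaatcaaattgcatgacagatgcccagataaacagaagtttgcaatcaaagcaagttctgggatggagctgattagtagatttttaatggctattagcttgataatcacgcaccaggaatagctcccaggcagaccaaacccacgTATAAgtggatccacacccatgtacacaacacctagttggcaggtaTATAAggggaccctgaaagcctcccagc
KRT10: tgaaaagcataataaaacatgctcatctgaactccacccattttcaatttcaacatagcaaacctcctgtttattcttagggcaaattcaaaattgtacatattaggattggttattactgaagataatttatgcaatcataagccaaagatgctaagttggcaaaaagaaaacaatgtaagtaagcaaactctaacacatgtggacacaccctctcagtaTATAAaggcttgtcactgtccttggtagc
TATAA was searched on both strands and lay closest to the start at -28 in KRT2, at -29 in KRT76, KRT4 and KRT10, and at -30 in KRT3, counted from the start to its first base. Of all 35116 promoters of this length, 18.9% held these letters. GGTGTGTT stood on the same strand at -138 in KRT76, at -143 in KRT3 and at -152 in KRT4, and was in neither KRT2 nor KRT10. It was found in 0.678% of all promoters, or 238. It was picked after the sequences were compared, as 1 of 7 words of 8 letters that at least 3 of the 5 promoters shared, so its presence here is a description only. TGANTCA, the AP-1 motif, was in none of the 5 windows and in 6.57% of all promoters. CCAAT (32.0% of promoters) was found in KRT10 alone, on the opposite strand at -143, and GCCNNNGGC, an AP-2 motif (19.8% of promoters), in KRT4 alone, at -105.

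The array probes for these genes were 60 bases long, with a GC content from 33.3% to 55%, against a median of 43.3% over all probes. The longest run of letters that any of them shared with a probe for another keratin was 8 to 10 bases. Whether they also hybridised to other keratin transcripts was not tested. The KRT13 probe spans 39659920 to 39661309 on chromosome 17 (hg19, minus strand), a stretch of 1390 bases, and so lies across a splice junction. Each keratin probe had 1 spot on an array. Levels below are log2 processed signal relative to the 75th percentile of the array, differences are DLEU1 cells minus control cells on that log2 scale, and detected means marked well above background by the scanner software. Levels of different probes are not comparable with each other.

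KRT1, the type II keratin of the epidermal spinous layer, was undetected in control cells and bright in DLEU1 cells. Its probe (A_33_P3379396, transcript NM_006121, chromosome 12 from 53068520 to 53068579, hg19, minus strand) gave a processed signal of 3.87 ± 3.88 in control cells and 20313 ± 2031 in DLEU1 cells. The control spot was not well above background, its mean pixel signal being 30.2 against a local background of 26. Taken against the lowest detected signal of the control array, 14.2, KRT1 was at least 1468-fold higher in DLEU1 cells. On the log2 scale this bound was 10.52, and 7.83 with a background correction by normexp.

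KRT10, the type I partner of KRT1, was already clearly detected in control cells. Its signal (A_23_P49975, chromosome 17 from 38974436 to 38974495, hg19, minus strand) was 21769 ± 2177 in control cells and 30676 ± 3068 in DLEU1 cells, or levels of 6.49 and 7.02. The difference was 0.53 with a software error of 0.20, which is 1.45-fold, and 20.2% of all genes detected on both arrays had a larger one. KRT10 thus stayed under 2-fold while its partner went from undetected to detected. KRT2, the type II keratin of the upper epidermal layers (A_23_P116850, chromosome 12 from 53038652 to 53038711, hg19, minus strand), was detected on neither array. Its signals were 3.16 ± 3.16 and 3.55 ± 3.21, so no level can be given for it.

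KRT4 and KRT13, the pair of the lining mucosa, were both far higher in DLEU1 cells. KRT4, the type II member (A_23_P2674, transcript NM_002272, chromosome 12 from 53200511 to 53200570, hg19, minus strand), had a signal of 30.7 ± 4.68 in control cells and 9845 ± 985 in DLEU1 cells. Its level went from -2.98 to 5.38, a difference of 8.36 (software error 0.26) or 329-fold. Of all 20246 genes detected on both arrays, 1 had a larger difference. The control spot of KRT4 was detected but dim, and with a background correction by normexp the difference was 6.66. KRT13, the type I member (A_24_P228149, transcript NM_002274), had a signal of 571 ± 57.2 in control cells and 30975 ± 3097 in DLEU1 cells. Its level went from 1.24 to 7.04, a difference of 5.80 (software error 0.20) or 55.7-fold, and 14 genes (0.0691%) had a larger one. KRT13 was well detected on both arrays, and its difference lay between 5.34 and 6.01 under every other setting that was run.

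**Figure D1:**
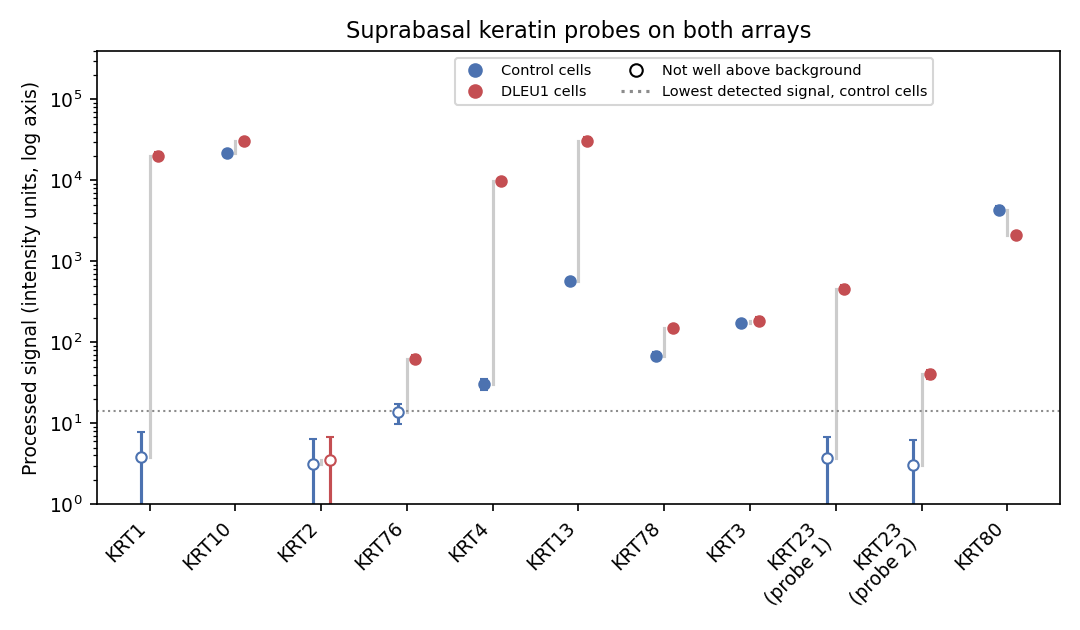
Processed signal (intensity units, log axis) of the 11 probes for suprabasal keratins on the control array and the DLEU1 array, with the scanner software's error for the spot as bars (bars that reach 0 run off the axis). Open circles are spots not well above background, and the dotted line is the lowest detected signal of the control array, 14.2. KRT1, both KRT23 probes and KRT76 are open in control cells and filled in DLEU1 cells, KRT2 is open on both arrays, and KRT80 is the gene that is lower in DLEU1 cells.

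The other mucosal and corneal keratins gave smaller differences or bounds. KRT76, the type II keratin of masticatory mucosa (A_23_P61498, chromosome 12 from 53162030 to 53162089, hg19, minus strand), gave 13.7 ± 3.84 in control cells, which was not well above background, and 62.2 ± 7.15 in DLEU1 cells. It was at least 4.49-fold higher, a bound of 2.17 on the log2 scale, which was 0.75 (1.68-fold) with normexp. KRT78, a type II keratin of stratified epithelia (A_33_P3315268, chromosome 12 from 53232760 to 53232819, hg19, minus strand), gave 68.5 ± 7.89 and 150 ± 15.6. The levels of -1.82 and -0.65 differed by 1.17 (software error 0.22) or 2.25-fold, and 7.08% of genes had a larger difference. This is near the 2-fold threshold, and the difference was 0.71 with normexp and also 0.71 when the spike-in probes were set equal on the arrays. KRT3, the type II keratin of corneal epithelium (A_33_P3287611, chromosome 12 from 53183601 to 53183660, hg19, minus strand), gave 172 ± 17.5 and 184 ± 18.7. Its difference of 0.14 was smaller than its software error of 0.21, and was -0.33 with spike-in scaling, so no direction can be given.

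KRT23, a type I keratin, was the only gene of the set with more than 1 probe, and neither probe was detected in control cells. The probe A_23_P78248 (chromosome 17 from 39078962 to 39079021, hg19, minus strand) gave 3.74 ± 3.04 in control cells and 462 ± 46.3 in DLEU1 cells, at least 33.4-fold higher. The probe A_33_P3299761 (chromosome 17 from 39081720 to 39081779, same strand) gave 3.06 ± 3.07 and 40.2 ± 5.04, at least 2.91-fold higher. Both probes were thus undetected in control cells and detected in DLEU1 cells, but the bounds they gave differ. The larger bound, 5.06 on the log2 scale, was 2.94 with normexp.

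KRT80 went the other way. This type II keratin, found in many epithelia and not tied to 1 differentiation route (A_24_P331704, chromosome 12 from 52563485 to 52563544, hg19, minus strand), had a signal of 4373 ± 437 in control cells and 2122 ± 212 in DLEU1 cells. Its level went from 4.17 to 3.17, a difference of -1.01 (software error 0.20) or 2.01-fold lower, and 9.65% of genes had a lower one. It lies at the 2-fold threshold and passed it in the reported setting, but not under loess (-0.81), quantile normalization (-0.83), scaling by the 75th percentile over detected probes (-0.89), normexp (-0.996) or correction by the local median (-0.97). The direction was the same under every setting that was run.

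Counted over the set, 6 of the 10 keratins were detected on both arrays (46.7% of all gene names were), 3 in DLEU1 cells only (2.87% of all gene names) and 1 on neither array (48% of all gene names). Of the 6, 3 were at least 2-fold higher in DLEU1 cells, KRT4, KRT13 and KRT78, where 9.18% of all genes detected on both arrays were. KRT80 was the 1 gene at least 2-fold lower, where 9.78% of all genes were. All 3 keratins seen in DLEU1 cells only, KRT1, KRT23 and KRT76, had a bound of at least 2-fold, against 35.6% of the 1242 gene names of that kind. The median difference of the 6 was 0.85, beside a median of -0.07 and an SD of 0.90 over all genes detected on both arrays. With genes detected on 1 array at their bounds, the medians were 2.17 for the keratins and -0.06 for all genes. The other 3 keratins entered because they were detected in DLEU1 cells only. This filter favours bounds above 0, so the rise to 2.17 is not a separate result. Among the 6 the differences thus ran from -1.01 to 8.36, and the median hides that KRT4 and KRT13 stood far from the other 4 keratins detected on both arrays. In RNA of a whole culture, more cells that express a keratin and more keratin RNA per cell cannot be told apart.

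**Figure D2:**
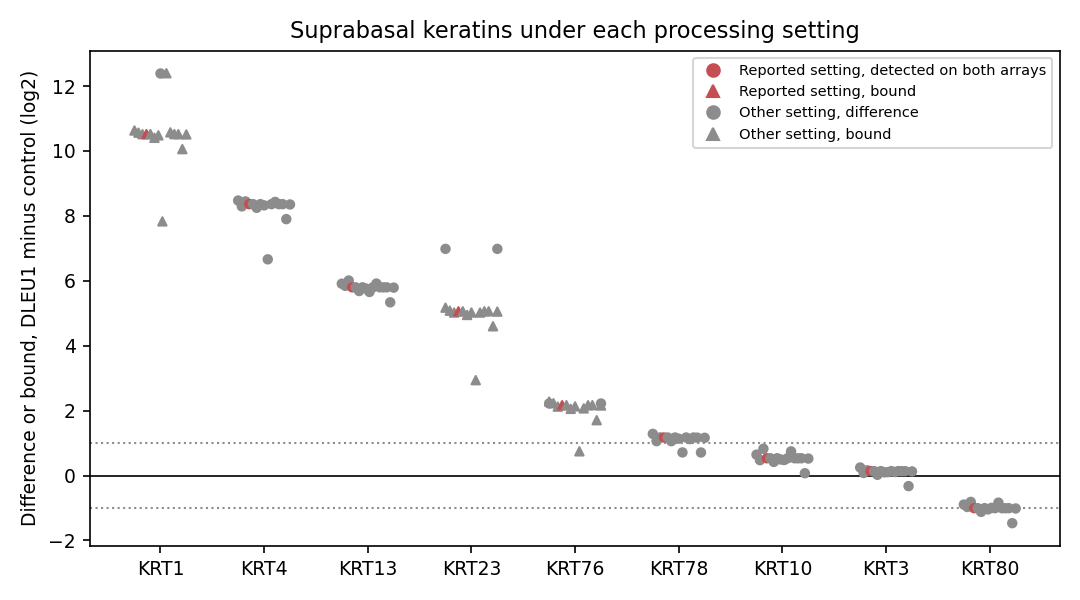
Log2 difference, DLEU1 cells minus control cells, of 9 suprabasal keratins under the reported setting and each other processing setting (KRT2, detected on neither array in the reported setting, is left out). Triangles are bounds for keratins detected in DLEU1 cells alone, circles are differences, including those of dim spots where no detection filter was used, and dotted lines mark 2-fold. KRT1, KRT4, KRT13 and KRT23 stay above 2-fold wherever a setting gave them a value, KRT80 moves around 2-fold lower and stays below 0, and KRT3 is at 0.14 with a value below 0 under spike-in scaling.

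Since keratins work as pairs, the difference of each type II keratin was set beside that of its usual type I partner. For KRT4 with KRT13 both differences were large, 8.36 and 5.80, and the type II gene exceeded the type I gene by 2.56. With normexp the differences were 6.66 and 5.66. For KRT1 with KRT10 the type II gene had a bound of 10.52 and the type I gene a difference of 0.53. KRT3 differed by 0.14, and its partner KRT12, the type I keratin of cornea, was detected on neither array (signals of 3.25 and 3.34). For comparison among other keratins, the basal pair KRT5 and KRT14 differed by 2.10 and 2.85. The pair KRT6A and KRT16, which appears in wounded and other stressed epithelium, differed by 2.91 and 6.66. The type I gene had the larger difference in these, by 0.75 for KRT14 over KRT5 and by 3.76 for KRT16 over KRT6A. KRT8 and KRT18, the pair of simple epithelium, differed by 0.18 and -0.93, so that there the type II gene was higher by 1.12. The other KRT18 probe, also detected on both arrays, differed by -1.04. Without replicates, none of these within-pair gaps was tested.

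The same genes were then placed in their clusters. On chromosome 12, between the first and the last keratin probe (52563485 to 53346554, hg19), lay 27 keratin genes, of which 19 were detected on both arrays. Of the 19, 9 were at least 2-fold higher and 2 lower, beside 9.18% and 9.78% of all genes detected on both arrays. Their median difference was 0.26. KRT76, KRT3 and KRT4 were neighbours in this order, with a bound of 2.17 and differences of 0.14 and 8.36. KRT3 thus lay between a gene with a bound above 2-fold and KRT4, at a difference within its own error. KRT80 was at the far end of the cluster. On chromosome 17 (38812755 to 39786737) lay 29 keratin genes, of which 14 were detected on both arrays, 9 were higher and 0 lower, with a median of 2.00. Within the same stretch of chromosome 17 lay 32 KRTAP genes, which encode proteins of the hair shaft and whose places among the keratins were not examined. Of these, 14 were detected on both arrays, and 0 of the 14 were at least 2-fold higher or lower, with a median of 0.03. A further 6 were detected in DLEU1 cells only (2.87% of all gene names were), 1 in control cells only and 11 on neither array.

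**Figure D3:**
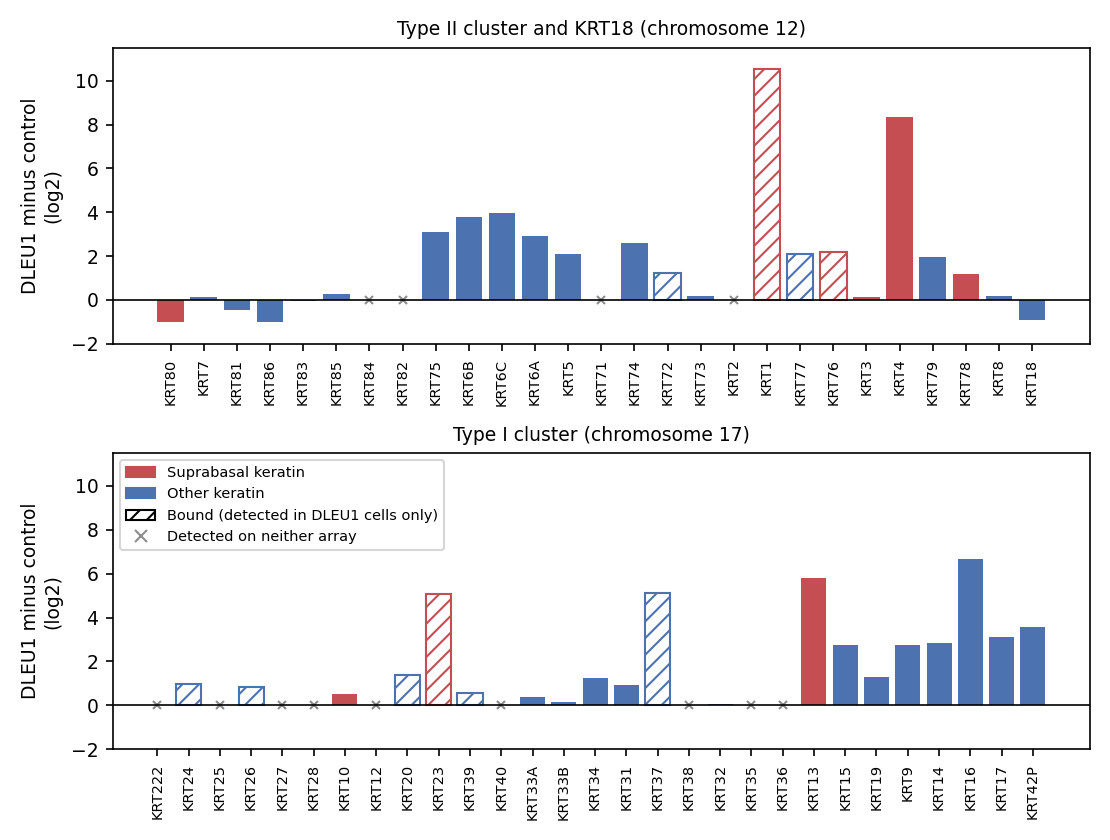
Log2 difference, DLEU1 cells minus control cells, for each keratin gene in its order along the chromosome 12 cluster (top) and the chromosome 17 cluster (bottom), evenly spaced and not to genomic scale. Filled bars are differences of genes detected on both arrays, hatched bars are bounds of genes detected in DLEU1 cells only, and crosses are genes detected on neither array. The suprabasal keratins (red) range from -1.01 for KRT80 to a bound of 10.52 for KRT1, and neighbours such as KRT3 (0.14, and -0.33 under spike-in scaling) and KRT4 (8.36) differ widely.

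The rest of the keratin family gave 46 further gene names, of which 27 were detected on both arrays. Of these 27, 15 were at least 2-fold higher and 1 lower, beside 9.18% and 9.78% of all genes detected on both arrays. Their median was 1.27. Among those detected on both arrays, the 5 largest differences were those of KRT16 (6.66), KRT6C (3.97), KRT6B (3.77), the pseudogene KRT42P (3.55) and KRT75 (3.11), a keratin of the hair follicle. The value of KRT42P is that of its brightest probe, and its other probe detected on both arrays differed by 0.86, under 2-fold. KRT6A, KRT6B and KRT6C are nearly identical in sequence, as are KRT16 and its pseudogene relatives, so their separate values are uncertain. KRT86, a hair keratin, was the 1 gene that was lower by at least 2-fold, at -1.002. KRT18 was counted by its brightest probe, at -0.93. Its other probe, also detected on both arrays, was at -1.04, so the count of lower genes depends on the choice of probe. A further 7 names were detected in DLEU1 cells only, 4 of them with a bound of at least 2-fold, and 12 on neither array. Over all gene names, 2.87% were detected in DLEU1 cells only, 35.6% of these with such a bound, and 48% on neither array. The hair shaft keratins (KRT31 to KRT40 and KRT81 to KRT86) were then set apart, after their values had been seen. The 9 of them detected on both arrays had a median of 0.13, which was -0.33 under spike-in scaling. Among these 9, 1 was at least 2-fold higher and 1 lower, or 11.1% each way, near the shares over all genes. A further 2 were detected in DLEU1 cells only, of which KRT37, named after its value was seen, was at least 35.2-fold higher. The remaining 18 keratins detected on both arrays, which include hair follicle keratins such as KRT75, had a median of 2.74. Of these, 14 were at least 2-fold higher and 0 lower, with KRT18 taken by its brightest probe. As the split followed the values, the gap between the medians of its parts is not a separate result. Differences of 2-fold or more were thus not limited to the 10 listed keratins. The other keratins were the rest of the family by name and were not sorted by layer, so they can include further suprabasal keratins. Among all keratins detected on both arrays, the difference of KRT4 was the largest, followed by those of KRT16 and KRT13.

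Genes listed as encoding proteins that bind or anchor keratin filaments, at desmosomes and elsewhere, were examined as a further group of 16. Of 15 detected on both arrays, 6 were at least 2-fold higher in DLEU1 cells and 0 lower, beside 9.18% and 9.78% of all genes detected on both arrays. The median was 0.30, beside -0.07 over all genes. Under spike-in scaling, which shifts all genes alike, 4 were higher and 2 lower with a median of -0.17, beside 4.57% and 24.0% of all genes and their median of -0.53. The highest were FLG (3.52), whose product filaggrin bundles keratin filaments in the upper epidermis, and the desmosomal plaque genes PKP1 (2.28) and JUP (1.58). The lowest were PNN (-0.86), PKP2 (-0.63), a desmosomal plaque gene of simple epithelia and heart, and PLEC (-0.48), a linker that joins filaments to hemidesmosomes. FLG2, named here after its value was seen, was the 1 gene detected in DLEU1 cells only, at least 11.3-fold higher. Of the 15 genes, 8 thus had differences above 0 and 7 below.

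Transcription factors and Notch pathway genes with a known part in suprabasal keratinocytes formed the last group, of 48 genes. Of 45 detected on both arrays, 16 were at least 2-fold higher and 2 lower, beside the same 9.18% and 9.78% of all genes, with a median of 0.79. Under spike-in scaling 13 were higher and 3 lower, with a median of 0.33, beside 4.57% and 24.0% of all genes and their median of -0.53. The highest were ZNF750 (4.22) and GRHL3 (3.66), both factors of terminal epidermal differentiation, and the receptor NOTCH3 (3.55). The lowest were FOSL1 (-4.05), an AP-1 subunit, PPARG (-1.58), a nuclear receptor of lipid metabolism, and POU3F1 (-0.63). POU2F3, at least 3.77-fold higher, was the 1 gene detected in DLEU1 cells only, and NFE2L2 and ELF5 were detected on neither array. These 3 were named after their values were seen. The group thus held differences in both directions, with 35 of the 45 above 0 beside 45.8% of all genes. Under spike-in scaling 27 were above 0, and the share of all genes above 0 was not computed for that setting. Whether any gene of the group acts on a keratin gene was not tested.

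**Figure D4:**
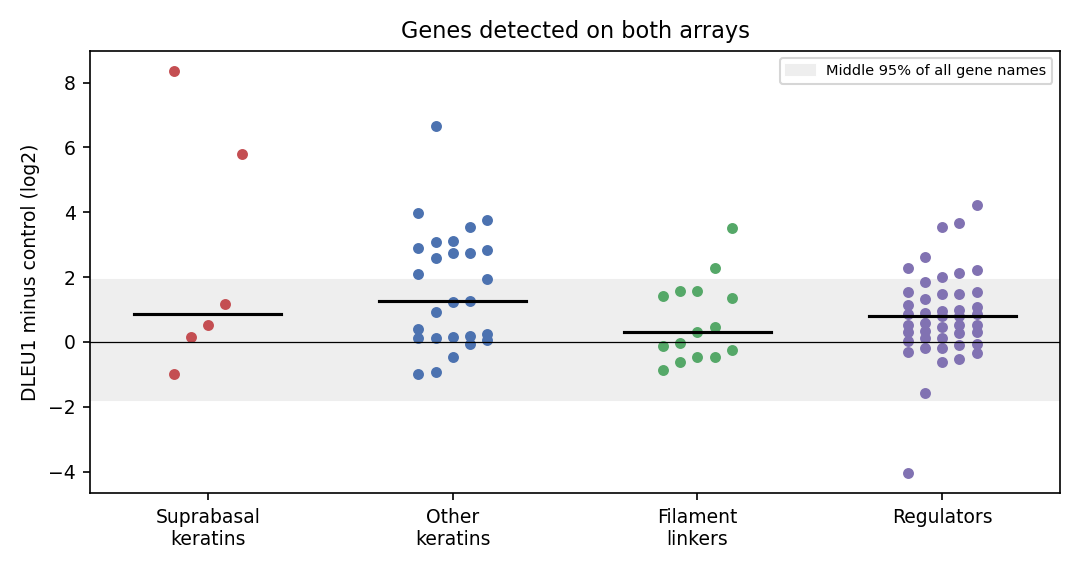
Log2 difference, DLEU1 cells minus control cells, of each gene detected on both arrays in the suprabasal keratins (6), other keratins (27), filament linkers (15) and regulators (45). Each point is a gene, bars are medians (0.85, 1.27, 0.30 and 0.79) and the grey band holds the middle 95% of all genes detected on both arrays, from -1.80 to 1.90; under spike-in scaling the median of the linkers was -0.17. KRT4 and KRT13 lie above the band and the other 4 suprabasal keratins within it.

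The labels were examined against marker genes. DLEU1 itself (A_23_P151337) had a signal of 2178 in control cells and 14156 in DLEU1 cells, a difference of 2.74 or 6.67-fold, which was 1.38 as the mean over its detected probes. All 8 epithelial markers were detected on both arrays, among them EPCAM (-0.78), TP63 (0.96) and SFN (0.00), with a summed signal of 236045 and 344643. KRT5 (signals of 28686 and 119985) and KRT14 (5698 and 39953) gained more than the whole sum did, KRT18 differed by -0.93, and CDH1 differed by 1.04 with its probe inside the damaged strip described below. Markers of other cell types were looked for in the same way. Of 7 fibroblast markers, 2 were detected in control cells and 3 in DLEU1 cells, and their summed signal was 378 and 5297. COL1A1 made up nearly all of this, with signals of 337 and 5217, whereas COL1A2, COL3A1, PDGFRA and DCN were not detected on either array. Of 5 endothelial markers, VWF (3.70) and CDH5 (-0.59) were detected on both arrays and PECAM1, KDR and TEK on neither, with a summed signal of 115 and 656. Of 4 leukocyte markers on the array, 3 were detected on both arrays, with sums of 302 and 247. Of 4 melanocyte markers, 2 were detected on both, with sums of 440 and 413. The part of COL1A1 and VWF in the keratin differences was not tested.

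On the 2 arrays 47.6% and 48.1% of probes were detected, and the SD of the log2 difference between repeated spots was 0.08 over 282 probes. The DLEU1 array had a damaged strip. Of the probes in it that were detected in control cells, 44.2% were at least 2-fold lower, against 12.2% of such probes elsewhere. No keratin probe lay in it (0 of the 11 probes for suprabasal keratins and 0 of the other keratin probes).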

How the data were processed

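RNA of each group was labelled with Cy3 and hybridised to an Agilent 1-colour array. The deposited intensity values and the detection and outlier flags (1 for yes, 0 for no) came, per the file headers, from Agilent Feature Extraction 10.7.3.1, which subtracted background, replaced values of dim spots by a surrogate and corrected spatial trends. The authors' series values held the same intensity rounded.

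Control spots and outlier spots (84 and 103) were left out. Processed signals were put on the log2 scale, spots of a probe averaged, and the 75th percentile of the array subtracted (7.92 in control cells, 7.88 in DLEU1 cells). Where several probes of a gene were detected on both arrays, the brightest stood for it. For a gene detected on 1 array, the dim array was set to its lowest detected signal (14.2 and 14.3), or to the probe's own signal where this was higher, and the fold is given as a lower bound. The bound is nominal, because an undetected spot can be brighter than the lowest detected one. DCN, for example, was undetected in DLEU1 cells at a signal of 17.0. Software errors contain a multiplicative term of 10% and no variation between cultures. For a difference, the relative errors of both spots were put on the log2 scale and combined as the root of the sum of their squares. Calls were made at 2-fold. The code was tested on simulated data. Python 3.11.15, R 4.3.3 and limma 3.58.1 (normexp) were used.

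The keratins, the gene lists and the settings were chosen with earlier results of these data known, and the split into hair and other keratins was made after their values were seen. Named were all 10 keratins, the 5 largest differences each way past 2-fold among other keratins, the partners KRT5, KRT14, KRT6A, KRT16 and KRT12, the 3 highest and 3 lowest genes of each list, and DLEU1. Probe positions are those of the files (hg19), promoters those of RefSeq.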

Additional observations from a re-analysis of the deposited data

How the results depend on the processing

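No paired analysis was possible because each group had 1 array, and for the same reason no replicate could be left out. A total of 17 other settings were run. The depth of an array is its signal over background, which limited KRT1, KRT23 and KRT76 to bounds and left KRT2 unmeasured. Of 125 values of single keratins under these settings, 82 moved by less than the SD between repeated spots, 43 by more, and 0 called differences changed sign. Part of the 82 could not move, so this count is no measure of stability. No spot was saturated, and no suprabasal keratin detected on both arrays had a further probe to average. Settings that change only the detection filter leave a difference as it was. The median of all genes, -0.07, was -0.53 under spike-in scaling and -0.18 under median scaling, and the share of higher genes among all genes past 2-fold, 48.4%, was then 16% and 39.0%, or 58.4% with the 75th percentile over detected probes. Spike-in scaling shifts all genes by the same amount, and the values of KRT3 and KRT10 were then -0.33 and 0.07. With normexp and its offset of 50, 5.54% of all genes were at least 2-fold higher and 6.98% lower, beside 9.18% and 9.78% in the reported setting.

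The median difference of the suprabasal keratins, 0.85, was 0.77 with the local median, 0.96 with a 75th percentile of detected probes, 0.9996 with loess, 0.74 with median scaling, 0.93 with quantile normalization, 0.39 with spike-in scaling, 0.60 with normexp, 1.70 both without a filter and with the flag for positive and significant signal, and 0.33 where a signal of 100 was asked for, where fewer keratins were left. The 3 suprabasal keratins at least 2-fold higher were 6 without a filter, 5 with the flag for positive and significant signal and 1 where a signal of 100 was asked for. The single lower one, KRT80, and the single lower one among the other keratins, KRT86, each became 0 at 3-fold, with the 75th percentile over detected probes, the local median, loess, normexp and quantile normalization. The count of lower genes among the other keratins was 2 at 1.5-fold and with median or spike-in scaling. At 3-fold, 2 linkers (6 at 2-fold) and 9 regulators (16 at 2-fold) were higher. The difference of DLEU1, 2.74, was 2.96 with loess, 2.85 with a 75th percentile of detected probes, 2.62 with median scaling, 2.92 with quantile normalization, 2.28 with spike-in scaling and 1.38 as the mean of its probes. Apart from what the construction of a setting shows, the cause of these shifts was not tested.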

Other observations

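Gene names that begin like a keratin but are not keratin proteins were measured on the same arrays, and are given as values. KRTDAP, which encodes a secreted protein of differentiating keratinocytes, had signals of 159 in control cells and 444 in DLEU1 cells, a log2 difference of 1.52 or 2.86-fold. The pseudogenes KRT16P2 and KRT19P2 differed by 3.83 and 2.35, near-identical copies of KRT16 and KRT19 whose probes cannot be taken to separate them from their parent genes. KRT18P55 differed by -0.94 and KRT8P12 by 0.04. KRTCAP3 differed by 1.05, and KRTCAP2 by -0.37.

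Among the 15 names on chromosome 12 that lay between keratin probes without being keratins, 4 were detected on both arrays, and C12orf80 was the 1 name at least 2-fold higher. That probe sat within the strip of damaged spots on the DLEU1 array. Among 14 such names on chromosome 17, apart from KRTAP genes, 5 were detected on both arrays, and lnc-EIF1-1 was the 1 name at least 2-fold higher, at 2.33. KRT73-AS1, named as antisense to KRT73, was detected in DLEU1 cells only, and by 1 of its 3 probes, whose signal of 17.2 there was close to the lowest detected signal, 14.3. These genes were named after their values were seen.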
